A study of Mus musculus with 3 samples.

Results

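Histone genes and the genes of proteins that modify, move, read or package nucleosomes were compared between mouse liver and the Universal Mouse Reference (UMRR), which is RNA pooled from several mouse lines of cultured cells and sold as a common array standard. The members were chosen by gene symbol alone: every probe with 1 symbol in the platform annotation that begins with a family stem such as Hdac, Kdm, Kmt, Smarc, Cbx, Chd, Phf, Prmt, H2a, H2b or Hmgb. This gave 83 genes on 125 probes, out of 7984 genes with a probe of their own on the array, and 54 of the 83 had a ratio on all 3 arrays. Both RNAs were purchased, were amplified to cRNA in 1 round and were hybridised together, with UMRR in the green Cy3 channel and liver in the red Cy5 channel of each array. The labels give no strain, sex, age or number of animals for the liver RNA, and no treatment. They name 1 product per RNA, so the 3 arrays form 1 group of repeats of the same RNA pair. Every p-value therefore rests on array-to-array spread alone, which may be technical, and livers were not compared with each other.

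Nuclear DNA is wound on octamers of the histones H2A, H2B, H3 and H4, and the H1 histones bind where it enters and leaves the octamer. Enzymes add acetyl or methyl groups to histone tails or remove them, proteins with bromo-, chromo- or PHD domains bind the marked tails, and remodelling complexes use ATP to slide or evict nucleosomes. Core histone genes are mostly transcribed during DNA replication, whereas variants such as H2A.Z and H3.3 are made throughout the cell cycle. Hepatocytes of adult liver rarely divide, and cell lines in culture divide continuously. In RNA of a whole tissue or of pooled lines, fewer cells that use a gene and less of its RNA per cell cannot be told apart.

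The sequences before 4 start sites are shown as examples. Hmgb2 had the lowest ratio, Smarca5 and Smarca2 encode remodelling ATPases with ratios on opposite sides, and H2az1 disagreed between arrays. The sequences are from RefSeq, build GRCm38.p6, in the direction of transcription, and each ends at the base before the start site. Of the 83 genes, 63 had promoters in the RefSeq table. Capitals mark matches, on either strand, to CCAAT (the box bound by NF-Y), TTTGAA (the letters of the cell cycle homology region), TTTCGCGC, TTTGGCGC and TTTCCCGC (forms of the E2F site) and GGCGCG, which can overlap the E2F forms. Hmgb2 lies on the plus strand at chr8:57511593-57511842, Smarca5 on the minus strand at chr8:80739460-80739709, H2az1 on the plus strand at chr3:137864237-137864486 and Smarca2 on the plus strand at chr19:26604910-26605159.
Hmgb2: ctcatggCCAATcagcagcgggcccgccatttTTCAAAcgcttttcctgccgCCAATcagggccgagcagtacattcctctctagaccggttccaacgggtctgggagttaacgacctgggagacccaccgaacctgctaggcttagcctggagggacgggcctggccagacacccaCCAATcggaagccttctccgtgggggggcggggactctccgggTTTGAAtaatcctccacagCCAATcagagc
Smarca5: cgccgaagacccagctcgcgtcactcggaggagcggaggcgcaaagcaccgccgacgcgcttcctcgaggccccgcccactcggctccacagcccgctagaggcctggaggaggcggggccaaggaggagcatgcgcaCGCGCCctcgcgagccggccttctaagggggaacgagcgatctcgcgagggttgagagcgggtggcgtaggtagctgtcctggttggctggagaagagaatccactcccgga
H2az1: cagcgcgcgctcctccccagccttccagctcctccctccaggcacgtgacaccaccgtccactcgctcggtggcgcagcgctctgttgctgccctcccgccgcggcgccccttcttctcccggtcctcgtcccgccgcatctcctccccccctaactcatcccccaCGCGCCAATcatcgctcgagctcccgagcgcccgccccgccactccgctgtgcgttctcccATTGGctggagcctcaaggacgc
Smarca2: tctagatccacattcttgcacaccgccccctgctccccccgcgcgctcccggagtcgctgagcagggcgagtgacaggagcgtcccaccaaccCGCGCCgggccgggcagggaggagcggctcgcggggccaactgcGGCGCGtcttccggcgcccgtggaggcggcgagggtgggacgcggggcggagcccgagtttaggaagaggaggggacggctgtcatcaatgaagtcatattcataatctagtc

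The Hmgb2 sequence held 4 matches to CCAAT, which began 243, 198, 73 and 11 bases before the start site, and 2 to TTTGAA, which began 218 and 30 bases before it. The H2az1 sequence held 2 matches to CCAAT (80 and 23 bases before the start site) and 1 to GGCGCG. Smarca5 and Smarca2 held matches to GGCGCG only. The promoters of Chd9, the member with the highest mean, held no match and are not shown. Over 33 promoters of 19 members that were lower in liver, CCAAT was found in 36.4%, TTTGAA in 6.06% and GGCGCG in 39.4%. The 8 promoters of 5 members that were higher in liver held CCAAT in 37.5%, TTTGAA in 0 and GGCGCG in 37.5%. Over the 57 promoters of 37 measured members the shares were 43.9%, 5.26% and 35.1%. Each start site of a gene was counted separately, and some lie close together. Among all 32851 promoters of the table the shares were 33.8%, 16.0% and 15.9%. TTTCCCGC was found in 1 of the 33 promoters and 0.895% of all, while TTTCGCGC and TTTGGCGC were found in 0 of the 33 and in 0.256% and 0.417% of all. These matches are descriptions of letters and were not tested.

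Each value is a log ratio per probe and array, read as log2 with positive values higher in liver. The table states neither base nor direction. Base 2 is an assumption, and natural logs would multiply each log2 value by 1.44. The direction was read from hepatocyte genes: Apoc3, Vtn, Rbp4 and Ambp, secreted proteins of the liver, had mean log2 ratios from 4.01 to 5.17, and the factors Klf15, Nr1h4 and Hhex from 2.97 to 3.97. Genes of pancreatic acinar cells were also higher on the liver side for 9 of 10 measured, with a median of 4.09, as were 4 of 6 erythroid genes (median 4.54); the part of such cells in the values below was not tested. Of 6 lymphocyte genes 2 were higher and 3 lower (median -0.69), and of 4 fibroblast and matrix genes 1 was higher and 3 were lower (median -1.81). Array 1 stood apart: over all genes its differences from arrays 2 and 3 had SDs of 0.43 and 0.38, against 0.21 between arrays 2 and 3. All arrays share 1 dye orientation, so dye bias is part of every ratio. An exact 0 was read as no ratio. It filled 38.4%, 28.0% and 33.6% of the 125 probes on arrays 1, 2 and 3, against 30.3%, 21.4% and 27.8% of all probes with 1 symbol.

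More chromatin genes were lower than higher in liver. In the limma fit over all genes, adjusted by Benjamini-Hochberg with calls at an adjusted p under 0.05, 27 of the 54 measured members (50%) were lower in liver and 7 (13.0%) higher, and 20 did not pass. The same test called 64.0% of all 5520 genes, 33.9% lower and 30.1% higher, so the share called in either direction (63.0%) lay near that of all genes. The counts by role group below are to be read beside these shares of all genes, and each group holds few genes. The median log2 ratio of the members was -0.32, against -0.028 for all genes. A mean below 0 was found for 2852 of all 5520 genes and for 40 of the 54 members. Their medians on arrays 1, 2 and 3 were -0.34, -0.35 and -0.33. Most differences were small: 79.6% of the members, and 75.1% of all genes, had a mean ratio of less than 2-fold either way. A ratio of at least 2-fold on every array was reached by 5 members on the UMRR side (9.26%, against 9.53% of all genes), namely Hmgb2, Kdm3a, Phf6, Smarca5 and Cbx5. On the liver side 2 members did so (3.70%, against 9.46% of all genes), Chd9 and H2bc4. Without moderation of the variance 16 members passed as lower and 7 as higher, and the shares of all genes fell to 19.1% and 18.7%. Without array 1, where 62 members could be tested, 33 were lower and 10 higher, beside 37.3% and 32.5% of all 5992 genes tested in that fit. At least 2-fold lower on both remaining arrays were then 8 members and 11.7% of all genes.

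**Figure D1:**
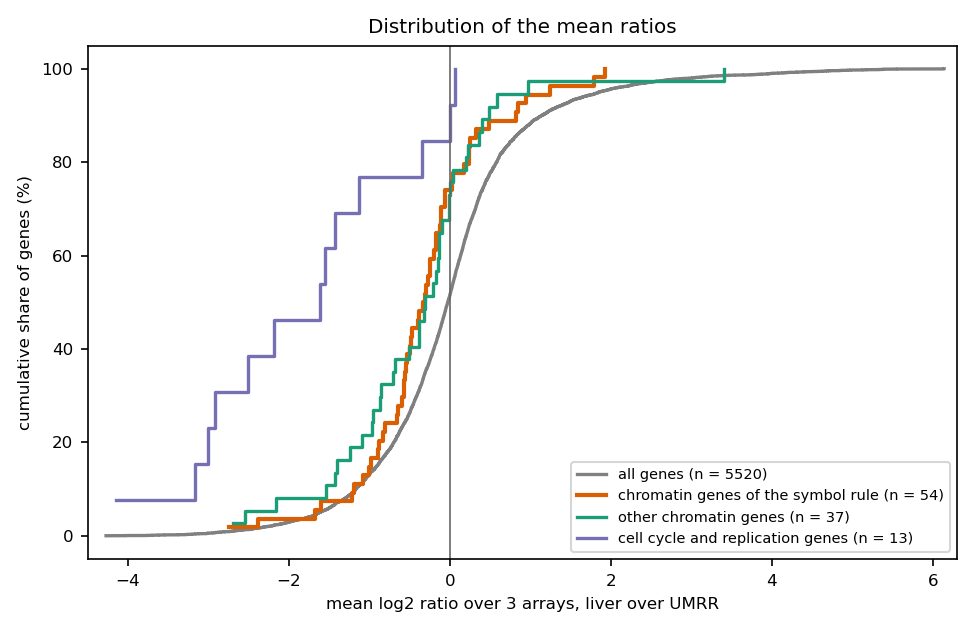
Cumulative share of genes (percent, vertical axis) by mean log2 ratio of liver over UMRR (horizontal axis) for all 5520 genes, the 54 chromatin genes chosen by symbol, 37 other chromatin genes and 13 cell cycle and replication genes. The chromatin curve crosses 50% at -0.32 and lies to the left of the curve of all genes around its middle, while its tail on the UMRR side lies close to that curve; the cell cycle curve is farthest to the left.

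Among the histones, 1 core histone gene, H2bc4, was higher in liver, and none of the 3 variant genes passed. H2bc4 encodes an H2B histone. Its log2 ratios were 1.68, 1.84 and 1.87 on arrays 1, 2 and 3, a mean of 1.79 ± 0.098 (SD, n = 3) or 3.47-fold higher (adjusted p = 1.91e-05, limma). All 3 arrays were thus on the liver side, but its probes differed in size: one stood at 2.72, 2.92 and 2.75 and the other at 0.65, 0.75 and 0.98. H2B genes are near-identical in their coding parts, so which of them the probes reported is uncertain.

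H2az1 encodes H2A.Z, the variant found around start sites. It stood at -0.38 on array 1 and at 1.04 and 0.80 on arrays 2 and 3, so the arrays did not share a direction. The mean of 0.49 ± 0.76 (SD, n = 3) did not pass (adjusted p = 0.153, limma). The 4 probes that carry it come from 1 clone in the annotation and moved together: on array 1 they lay between -0.43 and -0.31, on array 2 between 0.93 and 1.10 and on array 3 between 0.64 and 0.92. Without array 1 the limma fit called H2az1 higher, with a mean of 0.92 and an adjusted p of 0.000221, while without array 2 the adjusted p was 0.537 and without array 3 it was 0.392. H2ax, the variant phosphorylated at DNA breaks, had ratios of -0.36, -0.042 and -0.21 (adjusted p = 0.134). H2bfm, of the H2B family, lay at 0.28, -0.035 and -0.14 (adjusted p = 0.802).

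High mobility group proteins bind DNA or nucleosomes and bend or loosen them. Hmgb2 had the lowest ratio of all 54 members when all 3 arrays were used. Its log2 values were -2.76, -2.59 and -2.87, a mean of -2.74 ± 0.14 (SD, n = 3), or 6.68-fold lower in liver (adjusted p = 5.57e-06, limma). That value rests on probe 7035. A further Hmgb2 probe had ratios on arrays 1 and 3 only, at -0.20 and -1.15, and another on array 2 only, at -1.91, so all measured Hmgb2 values were below 0 while their size varied. Without array 2 the probe on arrays 1 and 3 entered and Hmgb2 stood at -1.75, above Kdm3a (-2.44 in the same fit), and with exact zeros kept as ratios of 1 it stood at -1.28. Hmgn5, which binds nucleosomes, was lower at -1.16, -0.60 and -0.65 (mean -0.80 ± 0.31, adjusted p = 0.00253), and array 1 was the lowest. Hmgb4, a relative of Hmgb2 known from testis, did not pass, at 0.20, 0.23 and 0.27 (adjusted p = 0.0606). It passed as higher in 5 of 13 alternative fits, with adjusted p-values from 0.0174 with exact zeros kept to 0.0496 after centring.

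Of 7 measured genes of SWI/SNF, ISWI and related remodellers, 5 were lower in liver, 1 was higher and 1 did not pass (median -0.55). Smarca5, the ATPase of ISWI complexes, had log2 ratios of -1.43, -1.69 and -1.69, a mean of -1.60 ± 0.15 (SD, n = 3) or 3.04-fold lower (adjusted p = 3.82e-05, limma). Smarca2, one of the alternative ATPases of SWI/SNF, went the other way at 0.79, 0.90 and 0.86 (mean 0.85 ± 0.059, 1.80-fold higher, adjusted p = 0.000343). The array values of these ATPase genes were far apart, with no overlap, though Smarca5 rests on 1 measured probe. The probes of Smarca2 agreed in direction but not in size, at means of 1.41 and 0.29.

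The other SWI/SNF genes that passed encode subunits without ATPase activity. Smarcb1, a core subunit, was lower at -0.82, -0.82 and -1.01 (mean -0.88 ± 0.11, SD, n = 3; adjusted p = 0.000357, limma). Arid1a, the DNA-binding subunit of the BAF form, stood at -0.56, -0.56 and -0.59, one of the tightest sets of values among the members. Arid2, the corresponding subunit of the PBAF form, stood at -0.29, -0.78 and -0.60, but its probes disagreed: one had a mean of -1.04 (adjusted p = 0.00126 in the limma fit of single probes) and the other of -0.070 (adjusted p = 0.580). Arid2 no longer passed without array 2 (adjusted p = 0.0544). Smarcad1, a remodeller related to these ATPases, was lower at -0.15, -0.43 and -0.62, and no longer passed without array 2 (adjusted p = 0.104) or array 3 (adjusted p = 0.216). Smarcd3 was near 0, at -0.25, 0.18 and 0.15 (adjusted p = 0.854). A further Smarcd3 probe, without a ratio on array 2, stood at 0.26 on array 1 and 0.11 on array 3.

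CHD proteins are remodelling ATPases with paired chromodomains. Chd9 had the highest mean of all 54 members, with log2 ratios of 1.92, 2.05 and 1.80 (mean 1.92 ± 0.12, SD, n = 3), or 3.79-fold higher in liver (adjusted p = 1.69e-05, limma). The other 4 measured CHD genes had means below 0, as did 2852 of all 5520 genes. Chd2 passed at -0.68, -0.43 and -0.49 (adjusted p = 0.00390), though a further probe of it, without a ratio on array 1, stood at 0.036 and 0.056. With that probe let in, the mean of Chd2 was -0.36 and the adjusted p 0.0547, and without array 1 they were -0.21 and 0.0584. Chd3 and Chd4, the ATPases of the NuRD repressor complex, were close to a ratio of 1, with means of -0.11 (adjusted p = 0.337) and -0.060 (adjusted p = 0.601). Chd1 had ratios of 0.028, -0.47 and -0.37 on its probe with all arrays, where array 1 stood apart. A further Chd1 probe, with a ratio on array 1 only, stood at -0.42. Among the fits that left out an array, Chd1 passed only without array 1 (-0.42, adjusted p = 0.00457, limma).

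**Figure D2:**
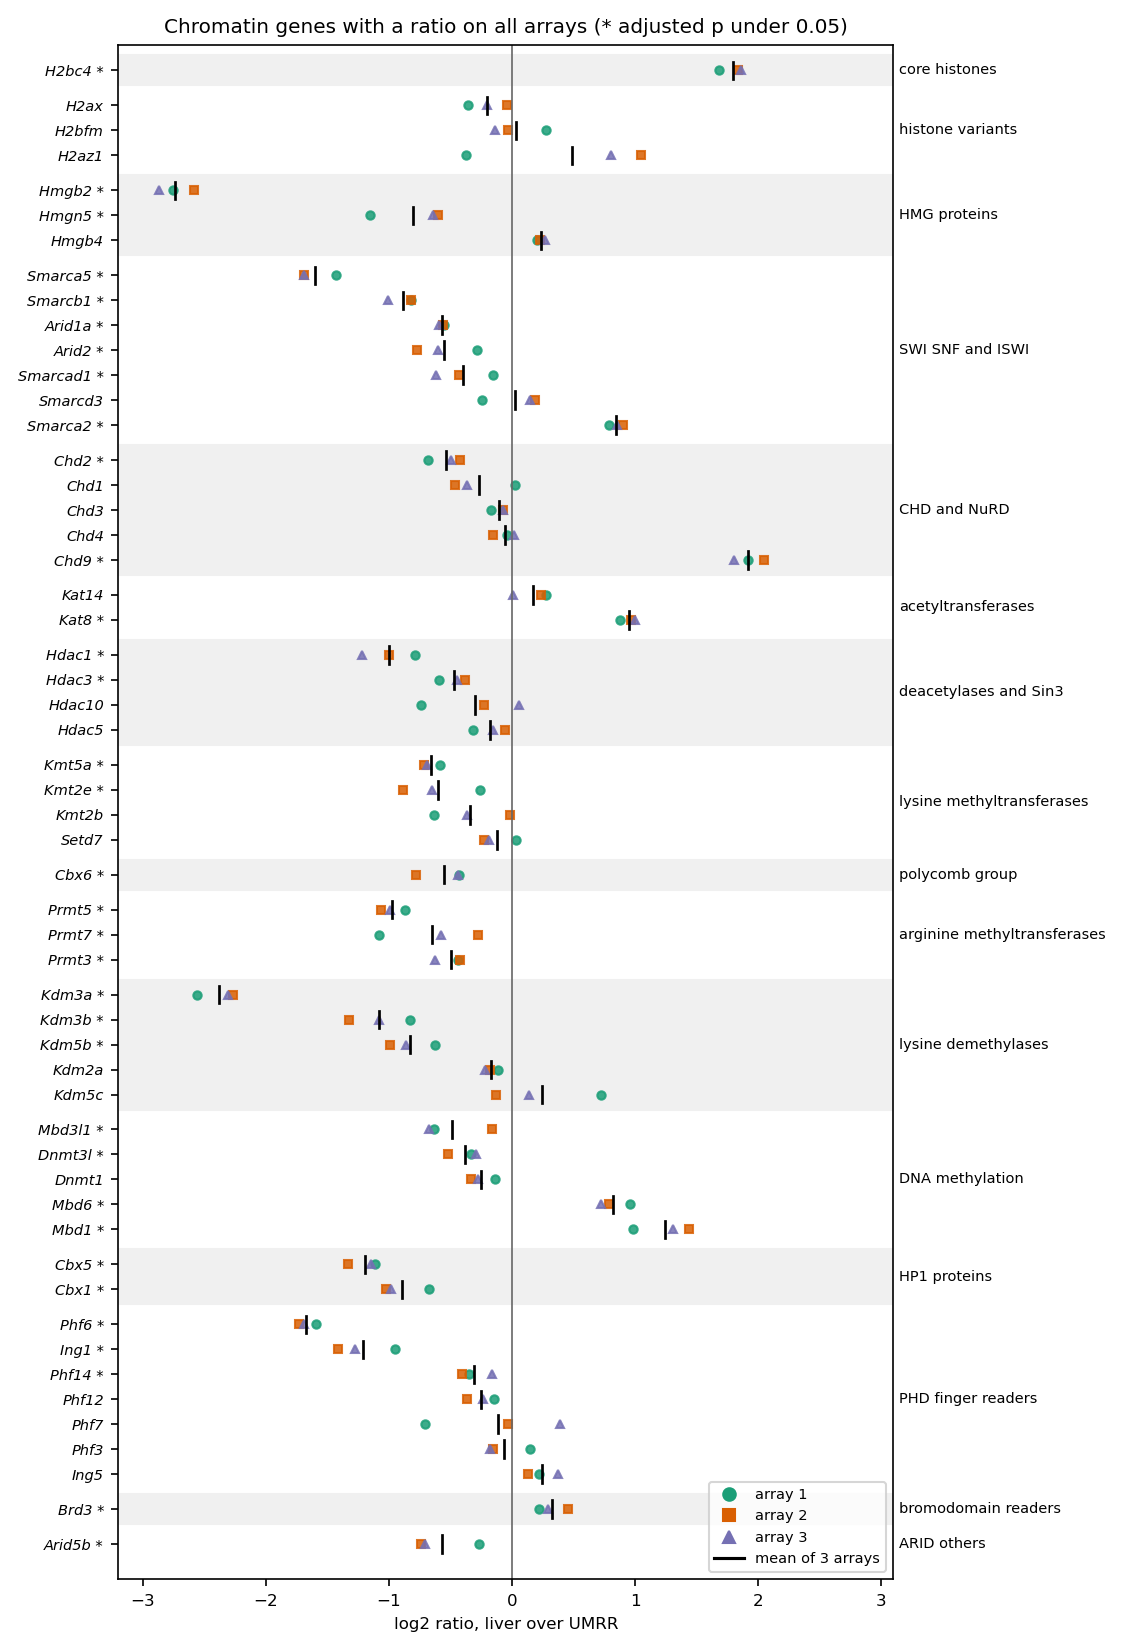
Log2 ratio of liver over UMRR (horizontal axis) for each of the 54 chromatin genes with a ratio on all 3 arrays, grouped by role; points are arrays and vertical bars their mean, and an asterisk marks genes past the limma test. Values left of 0 are lower in liver: 27 genes passed there and 7 on the right, with Hmgb2 (-2.74) and Chd9 (1.92) at the ends.

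Acetylation of histone tails is set by acetyltransferases and removed by deacetylases. Kat8, which acetylates histone H4, was higher in liver, at 0.88, 0.97 and 1.0 (mean 0.95 ± 0.062, SD, n = 3; 1.93-fold; adjusted p = 0.000214, limma). A further Kat8 probe without a ratio on array 1 had similar values, 0.91 and 0.88. Kat14, a subunit of an acetyltransferase complex, did not pass, at 0.28, 0.23 and 0.0073 (adjusted p = 0.181). All 4 measured deacetylase genes had means below 0, as did 2852 of all 5520 genes, and 2 passed. Hdac1, the catalytic subunit of the Sin3 and NuRD complexes, was lower at -0.79, -1.0 and -1.22 (mean -1.0 ± 0.21, 2.00-fold, adjusted p = 0.000435). Hdac3, the deacetylase of the NCoR corepressors, was lower at -0.59, -0.38 and -0.45 (mean -0.47 ± 0.11, adjusted p = 0.00551). Hdac5 and Hdac10 did not pass, with means of -0.18 (adjusted p = 0.162) and -0.30 (adjusted p = 0.143), and array 3 of Hdac10 was above 0 at 0.059.

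Lysine methyltransferases were lower in liver for 2 of 4 measured genes, with a median of -0.47. Kmt5a, which adds the first methyl group to a lysine of histone H4, stood at -0.58, -0.71 and -0.69 (mean -0.66 ± 0.0695, SD, n = 3; adjusted p = 0.00108, limma). Kmt2e, of the MLL family, stood at -0.26, -0.88 and -0.65 (adjusted p = 0.00911) and lost its call without array 2 (adjusted p = 0.0550). Kmt2b, another MLL gene, had ratios of -0.64, -0.018 and -0.37 and did not pass (adjusted p = 0.0681), but did so without array 2 (adjusted p = 0.0334). Setd7 was near 0, with a mean of -0.12 (adjusted p = 0.316). Cbx6, a chromodomain protein of Polycomb repressive complexes and the one measured gene of that group, was lower at -0.43, -0.78 and -0.44 (adjusted p = 0.00539).

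All 3 measured arginine methyltransferase genes were lower in liver. Prmt5, the main enzyme of symmetric arginine dimethylation, had log2 ratios of -0.87, -1.07 and -1.0 (mean -0.98 ± 0.10, SD, n = 3; 1.97-fold lower; adjusted p = 0.000221, limma). Prmt7, which adds a single methyl group, stood at -1.08, -0.28 and -0.58 (adjusted p = 0.0129), a wide spread with array 1 lowest, and had a mean of -0.43 without array 1. Prmt3, which methylates a ribosomal protein, stood at -0.44, -0.42 and -0.62 (adjusted p = 0.00472). Its probes had means of -0.87 and -0.12, of which the second did not pass alone (adjusted p = 0.416), and Prmt3 no longer passed without array 3 (adjusted p = 0.0693).

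Of 5 measured lysine demethylases 3 were lower in liver. Kdm3a, which removes methyl groups from histone H3 and is known as a gene induced by low oxygen, had the second lowest mean of the members. Its log2 ratios were -2.56, -2.27 and -2.31 (mean -2.38 ± 0.16, SD, n = 3), or 5.21-fold lower (adjusted p = 9.24e-06, limma). Its paralog Kdm3b was lower too, at -0.83, -1.33 and -1.08 (mean -1.08 ± 0.25, 2.12-fold, adjusted p = 0.000413, limma), and its array values did not overlap those of Kdm3a. Each of these genes rests on 1 measured probe, so a difference between probes cannot be told apart from a difference between the genes. Kdm5b, a demethylase of the mark of active promoters, was lower at -0.63, -0.99 and -0.86 (adjusted p = 0.000792). Its paralog Kdm5c had ratios of 0.73, -0.13 and 0.14, with array 1 highest, and did not pass (adjusted p = 0.248). A further Kdm5c probe, with a ratio on array 2 only, stood at 0.10. Kdm2a stood close to 0 on each array, with a mean of -0.17 (adjusted p = 0.144).

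Genes placed in a DNA methylation group by their Dnmt or Mbd symbols alone went both ways, with 2 higher, 2 lower and 1 not past the test. Mbd1, a repressor that binds methylated CpG, was higher in liver at 0.98, 1.44 and 1.31 (mean 1.25 ± 0.24, SD, n = 3; 2.37-fold; adjusted p = 0.000199, limma). A further probe of Mbd1 without a ratio on array 3 was lower in size, at 0.36 and 0.58. Mbd6, which has the same kind of domain, was higher at 0.96, 0.79 and 0.72 (mean 0.82 ± 0.13, adjusted p = 0.000547). Dnmt1, which copies methylation to new DNA strands, had ratios of -0.14, -0.34 and -0.27. It did not pass with all arrays (adjusted p = 0.0601) and passed without array 1 (-0.30, adjusted p = 0.0154).

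The other members of that group are best known from germ cells. Dnmt3l, a cofactor of de novo methylation, stood at -0.33, -0.52 and -0.30 (adjusted p = 0.0143, limma) and lost its call without array 2 (adjusted p = 0.120) or array 3 (adjusted p = 0.0762). Mbd3l1 stood at -0.63, -0.16 and -0.68 (adjusted p = 0.0163) and lost its call without array 3 (adjusted p = 0.119).

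HP1 proteins bind methylated histone H3 in heterochromatin, and both measured genes were lower in liver. Cbx5, which encodes HP1 alpha, stood at -1.11, -1.33 and -1.15 (mean -1.20 ± 0.12, SD, n = 3; 2.29-fold lower; adjusted p = 0.000104, limma). Its 3 measured probes had means of -1.56, -1.41 and -0.63, and each passed alone. Cbx1, which encodes HP1 beta, stood at -0.67, -1.03 and -0.99 (mean -0.90 ± 0.19, 1.86-fold lower, adjusted p = 0.000613), and both of its probes passed alone.

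PHD finger genes were lower for 3 of 7, and the other 4 did not pass; the median was -0.25. Phf6, a nuclear and nucleolar protein, stood at -1.60, -1.73 and -1.69 (mean -1.67 ± 0.0695, SD, n = 3; 3.19-fold lower; adjusted p = 2.24e-05, limma), with probe means of -2.04 and -1.30. Ing1, a subunit of the Sin3 deacetylase complex, stood at -0.95, -1.42 and -1.27 (mean -1.21 ± 0.24, 2.32-fold lower, adjusted p = 0.000225). Phf14 stood at -0.35, -0.40 and -0.17 (adjusted p = 0.0333) and lost its call without array 2 (adjusted p = 0.200) or array 3 (adjusted p = 0.104). Ing5, a subunit of acetyltransferase complexes, differed from Ing1 in having every array above 0, at 0.22, 0.13 and 0.37, but did not pass (adjusted p = 0.0741). Of its 3 probes 2 passed alone as higher (adjusted p = 0.0231 and 0.0280), and Ing5 passed with the median probe per gene (0.29, adjusted p = 0.0364).

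Phf12, of the Sin3 complexes, had a mean of -0.25 (adjusted p = 0.0618, limma) and passed without array 1 (adjusted p = 0.0193). Phf3 had a mean of -0.063 (adjusted p = 0.634). Phf7 was spread most widely of the PHD finger genes, at -0.71, -0.029 and 0.39 (adjusted p = 0.643). Brd3, a BET bromodomain reader of acetylated histones, was higher at 0.22, 0.45 and 0.29 (adjusted p = 0.0271) and lost its call without array 2 (adjusted p = 0.194) or array 3 (adjusted p = 0.151). A further Brd3 probe, with a ratio on array 2 only, stood at -0.014. Arid5b, an ARID protein that works with a histone demethylase, was lower at -0.27, -0.74 and -0.70 (adjusted p = 0.00746) and lost its call without array 3 (adjusted p = 0.0569).

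Several probes were measured for 11 of the 54 genes. The difference between the highest and lowest probe mean of a gene ranged from 0.16 for H2az1 to 2.00 for H2bc4. It was 1.12 for Smarca2, 0.97 for Arid2 and 0.93 for Cbx5, more than the SD between arrays of each of these genes. The gene value, the mean of its probes, therefore depended on which probes had a ratio. Except for H2az1, the probes of each gene came from different clones.

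**Figure D3:**
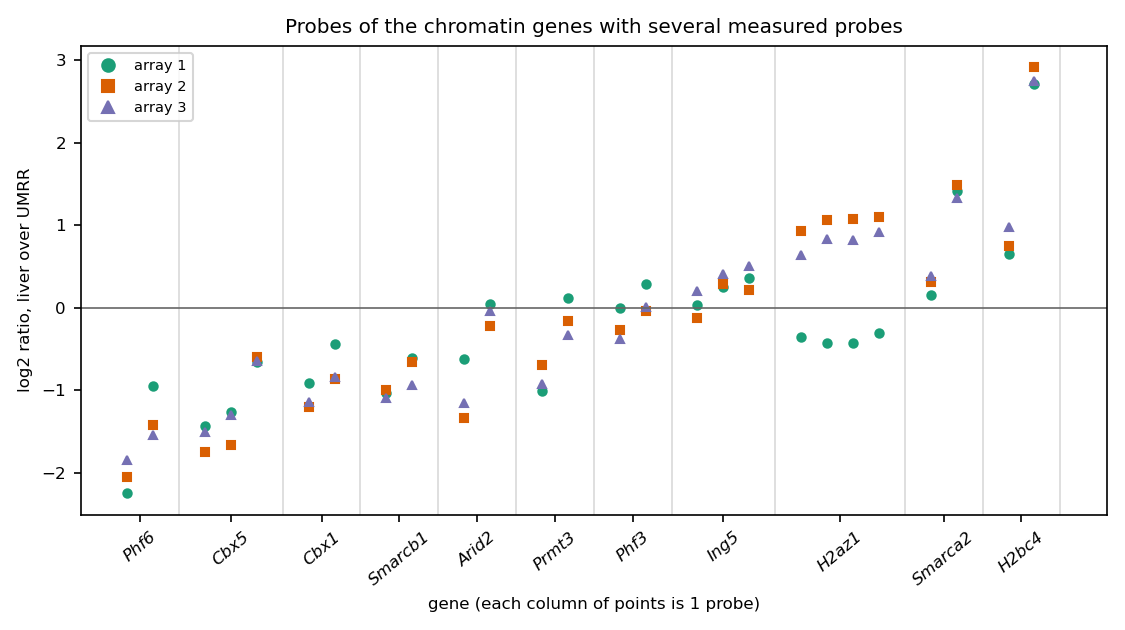
Log2 ratio of liver over UMRR (vertical axis) for each measured probe of the 11 chromatin genes with several probes; each column of points is 1 probe and the points are the 3 arrays. The 4 probes of H2az1 lie below 0 on array 1 and above 0 on arrays 2 and 3, and the probes of H2bc4 stand 2.00 apart.

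The sign was the same on all arrays for 79.5% of all genes, and 10 of the 54 members had both signs. In 6 members array 1 had the sign opposite to both other arrays, which was the case for 11.2% of all genes and 11.1% of the members. The median SD between arrays was 0.14 for the members and 0.17 for all genes. H2az1 had the widest spread of the members (SD 0.76), followed by Phf7 (0.56), Kdm5c (0.44), Prmt7 (0.41) and Hdac10 (0.40).

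**Figure D4:**
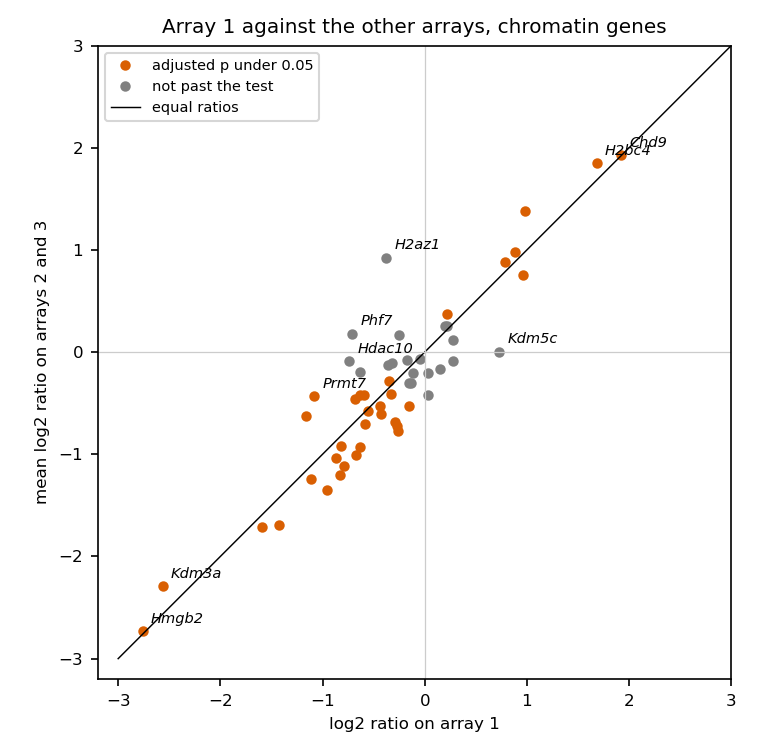
Log2 ratio on array 1 (horizontal axis) against the mean of arrays 2 and 3 (vertical axis) for the 54 chromatin genes; each point is 1 gene, coloured by whether it passed the limma test, and the line marks equal ratios. H2az1 lies far above the line (-0.38 on array 1, 1.04 and 0.80 on the others), and Hmgb2, Kdm3a, H2bc4 and Chd9 lie near it.

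A further 29 members had no probe with a ratio on all arrays and were not tested. Of these, 10 had a probe with ratios on 2 arrays and 9 on 1 array only. On arrays 2 and 3 Brd8, a bromodomain subunit of an acetyltransferase complex, stood at -0.97 and -1.07, Chd8 at -0.75 and -0.86 and Phf23 at -0.63 and -0.71. Smarcc2, a scaffold subunit of SWI/SNF, stood at 0.60 and 0.073 on these arrays. The testis histone gene H2bl1 lay at 0.40 and 0.26, H2al1m at -0.16 and -0.32 and the linker histone gene H1f7 at -0.085 and -0.080. Arid3a, with -0.0061 and -0.056, and Cbx7, with -0.016 and -0.082 on arrays 1 and 3, were close to 0. Hdac8 stood at -0.081 and -0.66 on arrays 1 and 2.

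On single arrays the lowest of these genes was Hmga2, known from embryonic and tumour cells, at -2.75 on array 2. Setd5 stood at -1.55, Hmgn1 at -0.99, Ing4 at -0.15, Ing2 at -0.050 and Setd3 at 0.58 on array 2. Smarce1 stood at -0.87 on array 3, and on array 1 Mbd4 stood at -0.49 and Kat2a at 0.37. The remaining 10 genes had no ratio on any array: Cbx3, Eed, H1f5, H2aw, H2bu2, H3f3a, H3f3b, Kdm1a, Phf11d and Setd6. The variant H3.3, encoded by H3f3a and H3f3b, was thus not measured.

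Other chromatin genes, whose symbols the stems do not take, were listed as partners of these families. Of 128 listed genes 37 were measured on all arrays. Of these 18 (48.6%) were lower in liver and 4 (10.8%) higher, against 33.9% and 30.1% of all genes, and 15 did not reach the threshold. The share called in either direction (59.5%) lay near the 64.0% of all genes, and their median was -0.31. The lowest were Uhrf1, which guides Dnmt1 to replicated DNA, at -2.33, -2.93 and -2.82 (adjusted p = 1.69e-05, limma), and Cenpa, the histone H3 variant of centromeres, at -2.32, -2.68 and -2.63 (adjusted p = 9.24e-06). Sap30, a subunit of the Sin3 complex, had a mean of -2.17 ± 0.11 (SD, n = 3) and Nap1l1, a histone chaperone, of -1.54 ± 0.24. Sirt3, a deacetylase of mitochondria, had by far the highest ratio, at 3.17, 3.41 and 3.62 or 10.5-fold higher (adjusted p = 4.76e-06). The others that were higher were Anp32e, an H2A.Z chaperone (mean 0.97 ± 0.34), Atrx, a remodeller that deposits H3.3 (0.58 ± 0.056), and Sirt2 (0.48 ± 0.23). Uhrf1 and Cenpa thus stood near Hmgb2, and the means of the whole list, apart from Sirt3, lay within the range of the members.

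Genes of DNA replication and the cell cycle were set beside the members as markers of dividing cells. Of 37 listed genes 13 were measured on all arrays. Of these 11 (84.6%, against 33.9% of all genes) were lower in liver and 2 did not pass the limma test (median -1.61). The lowest were Cdk1 (mean -4.15 ± 0.19, SD, n = 3), Cdc20 (-3.16 ± 0.30) and Mad2l1 (-3.01 ± 0.14), of which Cdk1 drives entry into mitosis and the others act in the spindle checkpoint. Slbp, which binds the stem loop of replicative histone mRNAs, stood near 0 at -0.026, 0.21 and 0.010 (adjusted p = 0.592). The median of the chromatin genes (-0.32) lay much closer to that of all genes than to that of this list. The part of dividing cells in the chromatin ratios was not tested.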

How the data were processed

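The deposited value table holds 1 log2 ratio per probe and array, from the authors' own processing. Base 2 was assumed; the log base, the scanner and the background and dye corrections are not stated in the labels or the file. Of 16273 probes, 12336 had 1 symbol in the platform annotation, 61 had several and 3876 are unnamed here. Of the probes with 1 symbol, 12228 matched RefSeq (GRCm38.p6) by gene identifier and 108 did not. The symbol changed for 0 of them. Exact zeros were left out. Probes with a ratio on all 3 arrays (9910) were averaged per gene, giving 5520 genes. The mean of each gene was tested against 0, two-sided, by lmFit and eBayes (limma 3.58.1, R 4.3.3), with Benjamini-Hochberg adjustment over all genes. The fit was tested on simulated data. Role groups were set by symbol. The members, lists and tests were chosen with earlier results of these data known. All measured members were named. Of the other chromatin genes past the test the 4 highest and 4 lowest were named, and Macroh2a2 was added where arrays were left out. Of the cell cycle list the 3 lowest were named and, after its value was seen, Slbp. Alternatives changed centring, scaling, arrays, probes, zeros, the variance model and the threshold. The number of arrays limits the precision.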

Additional observations from a re-analysis of the deposited data

How the results depend on the processing

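The ratio on each array already pairs liver with UMRR. No other pairing was available, because the arrays form a single group. Of the 34 chromatin genes that passed, 6 kept direction and call in each of 13 alternative fits: Hmgb2, Kdm3a, Phf6 and Smarca5 lower, Chd9 and H2bc4 higher. A test against a 2-fold difference called 4 members lower and 2 higher, 5 other chromatin genes lower and 1 higher, and 390 of all genes lower and 426 higher. Without moderation of the variance 12 members lost their call, 1 gained it and 16 were lower, 11 other chromatin genes lower and 2 higher, and 1054 of all genes lower and 1033 higher. With exact zeros kept as ratios of 1, 11 members lost their call and 2 gained it, and 11 other chromatin genes were lower and 2 higher. Of all 7984 genes in that fit 1229 were lower and 1162 higher. On every array 3 members were then at least 2-fold lower, beside 5.04% of all genes. At least 2-fold higher was 1 member, and the share of all genes on that side was not counted. The median of the members was -0.16 in that fit, with Hmgb2 at -1.28, Chd9 at 0.96 and Ing1 at -0.61. Read as natural logs, 10 members were at least 2-fold lower and 6 higher on every array. The shares of all genes under that reading were not counted, so these counts cannot be weighed against all genes. The median of the members was -0.31 after centring, -0.31 with probes on at least 2 arrays, -0.36 without the noisiest 5% of probes, and between -0.37 and -0.29 when an array was left out. Leaving out an array gave 21 to 33 members lower and 6 to 10 higher of 55 to 62 tested, beside 26.5% to 37.3% and 22.9% to 32.5% of all genes. At least 2-fold lower on both remaining arrays were 5 to 8 members, beside 9.75% to 11.7% of all genes. A call was lost by 1 member and gained by 5 without array 1, lost by 6 and gained by 1 without array 2, and lost by 7 without array 3. Macroh2a2, with a mean of 0.40 and no call, ranged from -0.77 to 0.66 when an array was left out, and was called lower without array 1, where a further probe, at -1.84 and -1.62, entered. Scaling, the median probe per gene and eBayes with trend and robust set moved none of the counts above by over 1.5 times.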
